A study of Mus musculus with 4 samples.

Results

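Lipid-associated macrophages (LAMs) with few cell cycle transcripts, called non-cycling here, were described among stromal vascular cells of brown adipose tissue (BAT) of the mouse. Single-cell RNA-seq of 4 libraries was used, with 1 library per group. These LAMs numbered 1878 of 28887 cells that passed quality control: 6 in WT, 384 in 8-week db/db, 824 in 16-week db/db and 664 in HFD. LAMs are macrophages that gather where lipid is in excess, around dying or overloaded adipocytes. They are known for the lipid-sensing receptor Trem2, for a large lysosomal compartment and for the uptake and storage of fatty acids and cholesterol. Trem2 signals through the adaptor Tyrobp, and the material that LAMs engulf is broken down by acid hydrolases in lysosomes.

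The members were selected by their own RNA. Counts were summed per 10000 unique molecular identifiers (UMIs, each standing for 1 captured RNA molecule) of a cell. A member had a sum of at least 30 for 7 macrophage genes (Lyz2, Cd68, Ctss, Csf1r, C1qa, C1qb and C1qc), under 30 for 5 stromal genes and under 20 for 3 endothelial genes. Its sum for Trem2, Gpnmb, Spp1, Cd9 and Mmp12 was at least 20 and above that of the perivascular macrophage (PVM) genes Lyve1, Cd163, Folr2, Cbr2 and F13a1. It held under 3 UMIs of 8 cell cycle genes. The first 3 sums are called the macrophage gate below. Because measured values chose these cells, and because there was 1 library per group, all values are descriptions without a test. Intervals are exact 95% intervals that cover counting error only, not the differences between mice. Those of levels and ratios treat the summed UMIs as independent, so they leave out the spread between cells as well.

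The WT library came from C57BL6/J mice labelled as 10 weeks old. The db/db libraries came from mice labelled with the same strain at 8 and 16 weeks (db/db 8w and db/db 16w in the plots), which lack a working leptin receptor in every cell and become obese and diabetic. The HFD library came from C57BL6/J mice fed a high-fat diet, with a label of 10 weeks, which the study's methods give as the age at which the diet began. The methods give the length of the diet as 10 weeks, so by them these mice were older than their label when collected. The study pooled several mice for each library, and describes all of them as male. Genotype, age, diet and library cannot be told apart between groups.

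The libraries stood apart in ways that touch the values below. The quality filters kept from 31.3% of barcodes in HFD to 89.5% in 16-week db/db. The median share of mitochondrial UMIs in LAMs was 2.40% in WT, 3.85% in 8-week db/db, 0.56% in 16-week db/db and 8.97% in HFD. LAMs were deeply sequenced, with medians of 12221, 10173, 7240 and 7849 UMIs per cell in WT, 8-week db/db, 16-week db/db and HFD. PVMs held fewer, with medians from 2787 to 5733. In 16-week db/db, the X-inactivation RNA Xist stood at 110 CPM (UMIs of a gene or list scaled to a total of 1e6 UMIs) in LAMs and at 0 in the LAMs of the other 3 libraries. Y-linked genes summed to 14.5 CPM in the LAMs of that library and to between 77.2 and 130 CPM in the others, which does not match an all-male pool. Hemoglobin RNA reached 1539 CPM in 16-week db/db LAMs, against 0 to 235 CPM in the other libraries. Any pair of libraries shared at most 25 barcodes among cells that passed quality control, and 2 shared barcodes were LAMs.

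LAMs were rare in WT and common in each library of obese mice. They made up 0.534% of macrophage-gated cells in WT (interval 0.196 to 1.16%), 13.5% in 8-week db/db (12.3 to 14.8%), 35.1% in 16-week db/db (33.1 to 37.0%) and 35.6% in HFD (33.4 to 37.8%). Set against WT, the share was 12.96 points higher in 8-week db/db (11.6 to 14.3), 34.5 in 16-week db/db (32.5 to 36.5) and 35.1 in HFD (32.8 to 37.3). The intervals of 16-week db/db and HFD overlapped, whereas that of 8-week db/db lay between WT and both. Of all cells that passed quality control, LAMs were 0.101%, 3.297%, 14.1% and 12.2% in WT, 8-week db/db, 16-week db/db and HFD.

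PVMs, the resident macrophages along vessels, ran the other way within the same gate. They were taken from the macrophage gate by a PVM sum of at least 20 that was no lower than the LAM sum, with the same limit on cell cycle genes. Their share was 74.2% in WT, 47.1% in 8-week db/db, 13.9% in 16-week db/db and 3.80% in HFD, which amounts to 834, 1339, 327 and 71 cells. Shares within one gate sum to a whole, so a higher share of one class lowers the other. The HFD share of LAMs moved with the mitochondrial limit: its difference to WT was 48.0 points at a limit of 10% and 25.7 points with no limit.

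**Figure D1:**
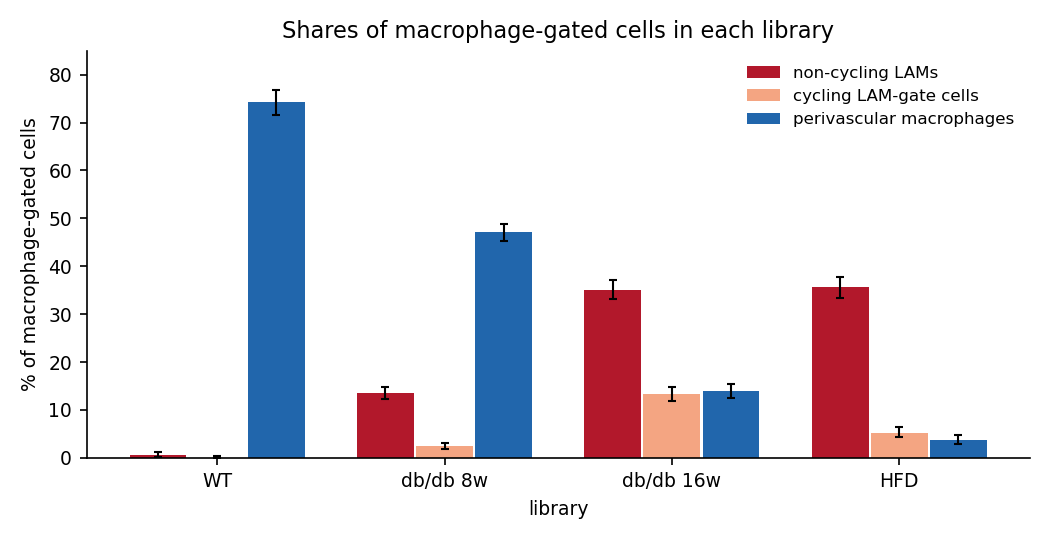
Percent of macrophage-gated cells (y axis) that were non-cycling LAMs, cycling LAM-gated cells or PVMs in each library (x axis). Bars are shares and error bars are exact 95% intervals for counting error; the LAM bar stands at 0.534% in WT and at 35.6% in HFD, while the PVM bar stands at 74.2% in WT and at 3.80% in HFD.

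The marker threshold cut through a continuum. The lowest marker sum of a member was 20 per 10000 UMIs in 16-week db/db, and the highest sum of a macrophage-gated cell below the threshold was 19.97 in 8-week db/db and in HFD. Between 20 and 30 lay 94 members in 8-week db/db, 198 in 16-week db/db and 169 in HFD, and between 10 and 20 lay 191, 230 and 277 cells that were not members. The median member had a sum of 43.6, 46.4 and 45.1 in these libraries. The median count was 40, 32 and 35 raw UMIs of the 5 markers together.

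The 5 markers that define the rule were not alike across libraries. Trem2, the lipid receptor, stood at 476 CPM in WT LAMs (335 to 657), 1321 in 8-week db/db (1286 to 1356), 1486 in 16-week db/db (1457 to 1516) and 1648 in HFD (1615 to 1680). Gpnmb, a glycoprotein of late endosomes and lysosomes, stood at 270, 2359, 2314 and 2491 CPM in the same order. Both differed less among the obese libraries than Spp1 and Mmp12 did, and both were lower in the 6 WT cells.

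Spp1, which encodes the secreted adhesive protein osteopontin, stood at 12.9 CPM in WT, where it was a single UMI, 516 in 8-week db/db, 1615 in 16-week db/db and 142 in HFD. Mmp12, the macrophage metalloelastase, had the opposite order, with 3630 CPM in WT, 1572 in 8-week db/db, 818 in 16-week db/db and 2092 in HFD. Cd9, a tetraspanin of the cell surface, stood at 309, 523, 603 and 482 CPM. Among the obese libraries, Spp1 was thus highest and Mmp12 lowest in 16-week db/db. The sum of these markers chose the members, so the levels describe the selected cells and the difference between libraries was not tested. Cells outside the macrophage gate held 572 CPM of Spp1 in 16-week db/db and between 1.35 and 16.6 CPM in the other libraries; the part of RNA from other cells in the 16-week db/db level was not tested.

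**Figure D2:**
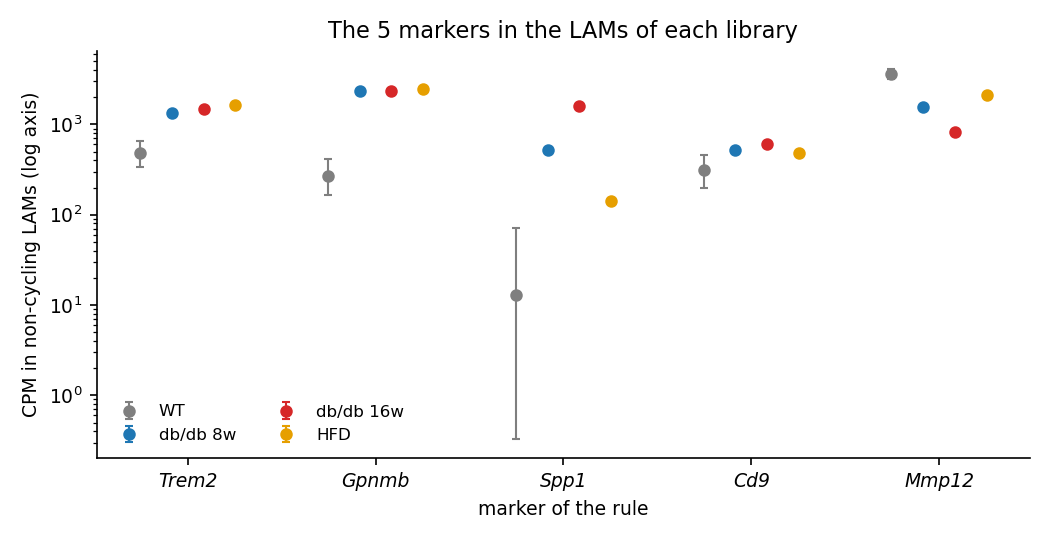
Level of the 5 markers of the rule (x axis) in the non-cycling LAMs of each library, in CPM on a log axis (y axis). Points are summed counts over the members and error bars are exact 95% Poisson intervals; Spp1 runs from 12.9 CPM in WT to 1615 CPM in 16-week db/db, and Mmp12 from 818 CPM in 16-week db/db to 3630 CPM in WT.

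The same marker did not qualify every member. In 8-week db/db, Gpnmb gave the most marker UMIs in 41.7% of members, Mmp12 in 25.3% and Trem2 in 21.4%. In 16-week db/db, Gpnmb led 41.5%, Trem2 26.5%, Spp1 16.7% and Mmp12 7.52%. In HFD, Trem2 led 34.9%, Gpnmb 34.8%, Mmp12 25% and Spp1 0.90%. In WT, Mmp12 led 5 of the 6 members, and 2 members were left in WT when Mmp12 was dropped from the rule. In the obese libraries, dropping Trem2 kept 68.2 to 71.6% of members, dropping Gpnmb 71.8 to 81.6%, and dropping Spp1 91.5 to 97.9%.

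To compare cells of unequal depth, each was thinned to 1000 UMIs, which left out 13, 18 and 0 members of 8-week db/db, 16-week db/db and HFD that were shallower. Trem2 was then seen in 65.5%, 73.8% and 74.2% of members, against 11.0%, 24.1% and 31.0% of PVMs. Without thinning, the shares in members were 92.2%, 97.3% and 98.6%. Stromal cells, which should lack Trem2, gave 1.57%, 1.55% and 4.04% after thinning, at median depths of 3596, 2666 and 5074 UMIs before it.

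Spp1 was seen in 17.3%, 36.8% and 8.73% of thinned members, and in 0.50%, 1.09% and 0.48% of stromal cells. Mmp12 was seen in 41.5%, 17.6% and 53.3% of thinned members, and in 2.13%, 0.55% and 7.02% of stromal cells. Gpnmb and Cd9 were detected in stromal cells as well, at 13.8 to 18.9% and 19.7 to 31.1%, so these 2 genes separate LAMs from stromal cells less sharply than Trem2. Of the 5 markers, 2 or fewer were seen in 63.6%, 56.7% and 57.4% of thinned members, and all 5 in 1.62%, 0.99% and 0.90%.

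Spp1 RNA was concentrated in few members. The 10% of members richest in Spp1 held 86.7% of its UMIs in 8-week db/db and 71.0% in 16-week db/db after thinning, and in HFD 8.73% of members held any. Before thinning, 247, 306 and 436 members held no Spp1 UMI. For Mmp12 the richest 10% held 58.6%, 86.9% and 52.1% of UMIs. Trem2 was spread more evenly, at 32.1%, 27.6% and 29.6%. For Lgals3, a galectin outside the rule, the richest 10% held 26.1%, 24.1% and 24.1%. It was seen in 95.1%, 98.6% and 98.5% of thinned members. The share in the richest members also depends on the level of a gene. Lgals3 held 2825, 7743 and 5481 UMIs after thinning, against 448, 1167 and 1057 for Trem2. The evenness of these genes can thus not be ranked by this share.

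LAMs were next set against the PVMs of the same library, where both classes met the same pool of free RNA. PVMs held fewer UMIs per cell, so free RNA could make up a different part of each class, which was not tested. The comparison describes the classes and does not test them, since the rule separated them by expression. Genes were counted where either class had at least 20 CPM, and called higher or lower past a fold of 2 on a log2 scale with 10 CPM added. Over all such genes, 5.66% were higher and 9.02% lower in LAMs in 8-week db/db, 4.37% and 12.8% in 16-week db/db, and 6.04% and 8.19% in HFD. All genes together had a median log2 ratio of -0.04, -0.23 and -0.02 in this order. Markers outside the rule mostly ran the same way: 13 of 14 other LAM markers with a level were higher in 8-week db/db, 12 of 14 in 16-week db/db and 12 of 14 in HFD. Emp1, the remaining gene in 8-week db/db, was lower past the fold of 2 there and in WT. This list is not independent of lists described below. It shares Fabp5, Plin2 and Lpl with the fatty acid list and Lipa with the hydrolases. It also shares Cd63 and Atp6v0d2 with the lysosomal membrane and pump list. The opposite marker list, for PVM identity, was lower for 16 of 16, 15 of 15 and 15 of 15 genes, among them the mannose receptor Mrc1 and the selenium carrier Selenop.

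Among genes outside the rule, 12 were named as higher in LAMs of all 4 libraries by the size of their smallest ratio: F7, Il7r, Fabp5, Itgax, Adam8, Sdc1, Hilpda, Lgals3, Kcnn4, Ear2, Anxa1 and F10. Lgals3 stood at 5741, 8765, 10951 and 9294 CPM in LAMs of WT, 8-week db/db, 16-week db/db and HFD, against 309, 951, 1652 and 1966 CPM in PVMs. Fabp5, a carrier of fatty acids inside the cell, stood at 1622, 2152, 2940 and 1943 CPM in LAMs and at 27.2, 204, 206 and 230 CPM in PVMs. In these 2 genes the LAM level of each library lay above the PVM level of every library.

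Itgax, the integrin CD11c, stood at 142, 164, 84.0 and 292 CPM in LAMs, against 0 to 23.0 CPM in PVMs. Il7r, the interleukin-7 receptor chain, stood at 283, 266, 117 and 496 CPM in LAMs and at 1.24 to 32.8 CPM in PVMs. F7 and F10, which encode coagulation factors VII and X, stood at 114 to 176 and at 29.6 to 425 CPM in LAMs, and at or below 8.63 CPM in PVMs. Hilpda, an inhibitor of lipid droplet breakdown, stood at 1004, 1210, 348 and 297 CPM in LAMs and at 49.2 to 177 CPM in PVMs.

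The genes lower in LAMs included 11 that are reported here: Ccl8, Cd209f, Ednrb, Fxyd2, Lifr, Fcna, Mgl2, Ltc4s, Gas6, Maf and Cd209b. Ccl8, a monocyte chemokine, stood at 12.9, 108, 29.7 and 18.9 CPM in LAMs of WT, 8-week db/db, 16-week db/db and HFD, and at 2151, 2946, 1612 and 614 CPM in PVMs. Maf, a transcription factor of resident macrophages, stood at 64.4 to 93.05 CPM in LAMs and at 650 to 1392 CPM in PVMs. Gas6, a bridge to dying cells for the receptors Axl and Mertk, stood at 12.9 to 54.7 CPM in LAMs and at 266 to 851 CPM in PVMs. Ranked over the 3 obese libraries alone, 9 of the 12 higher and 9 of the 11 lower genes were named again.

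**Figure D3:**
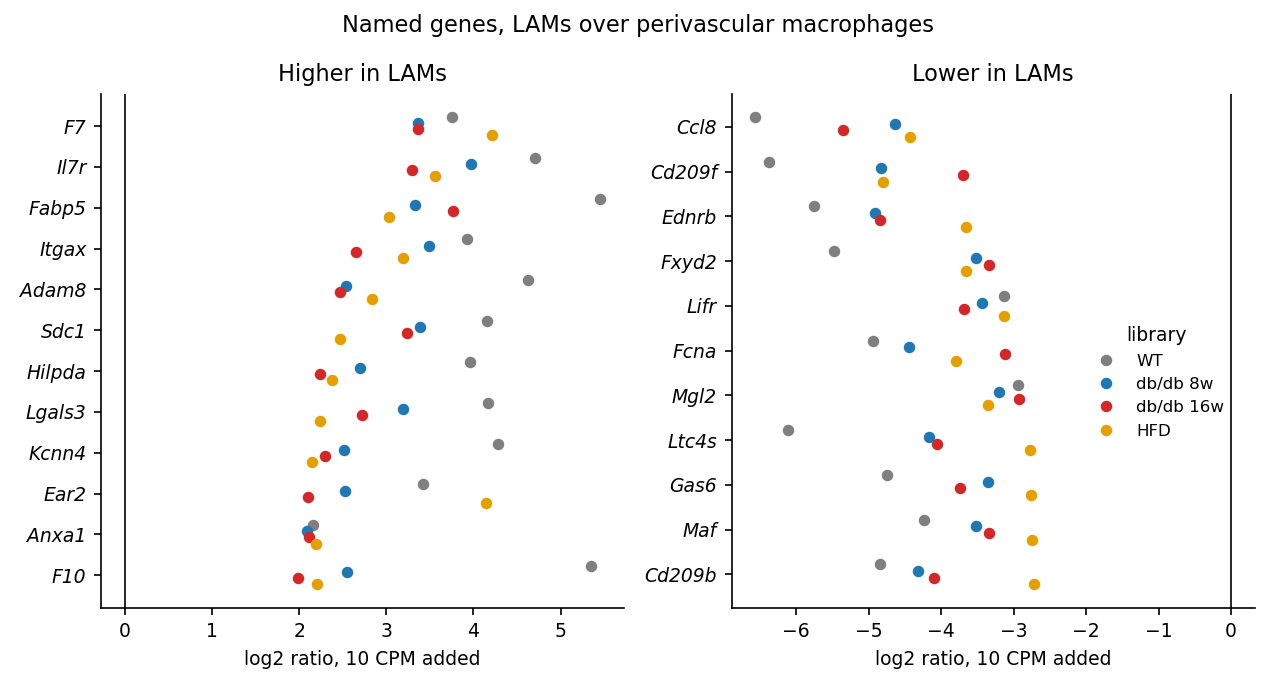
Log2 ratio of CPM in LAMs to CPM in PVMs with 10 CPM added (x axis) for the 12 named genes higher and the 11 lower in LAMs (y axis), with 1 point per library. Every point lies on one side of 0, as the naming rule requires, and for genes at 0 UMIs in one class the size depends on the 10 CPM added.

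Genes that take up and store fatty acids stood higher in LAMs. The list's summed level was 12912 CPM in LAMs and 2377 in PVMs of WT, 18032 and 3948 in 8-week db/db, 14211 and 4059 in 16-week db/db, and 16380 and 7703 in HFD. The log2 ratio of the sums was 2.44 (2.35 to 2.53), 2.19 (2.17 to 2.21), 1.81 (1.76 to 1.85) and 1.09 (1.03 to 1.15). The count of genes called higher was 9 of 13 in 8-week db/db, 5 of 12 in 16-week db/db and 6 of 12 in HFD, with medians of 1.36, 0.71 and 1.02, and none was lower. Lpl, Fabp5, Plin2 and Hilpda were higher in all 3.

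Lpl, the lipase that frees fatty acids from lipoproteins, stood at 3514, 4512, 3227 and 4550 CPM in LAMs of WT, 8-week db/db, 16-week db/db and HFD, and at 160, 454, 341 and 1789 CPM in PVMs. Plin2, the lipid droplet coat protein of macrophages, stood at 2626, 2546, 2178 and 2141 CPM in LAMs, and at 889, 779, 413 and 985 CPM in PVMs. Cd36, a fatty acid receptor, stood at 2742, 3015, 2719 and 3863 CPM in LAMs and at 811, 1169, 1536 and 2018 CPM in PVMs. LAM levels of these 3 genes differed by less than a fold of 2 among libraries, and the lower ratio in HFD went with a higher PVM level. After thinning, Lpl was seen in 83.5% of stromal cells and 81.1% of LAMs in 16-week db/db. In HFD these shares were 82.5% and 92.8%. In 8-week db/db Lpl was seen in 54.5% of stromal cells, a lower share than in LAMs. Cd36 was seen in 14.5%, 25.6% and 47.5% of stromal cells in 8-week db/db, 16-week db/db and HFD, less often than in LAMs. The part of free RNA in the LAM and PVM levels of Lpl and Cd36 was not tested.

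Fabp4, a fatty acid carrier that endothelial cells and adipocytes also express, stood at 3694, 1975 and 2516 CPM in LAMs of 8-week db/db, 16-week db/db and HFD. Cells outside the macrophage gate held 2162, 17872 and 17947 CPM of it, and the part of free RNA in the LAM level was not tested. Against all other non-cycling macrophage-gated cells in place of PVMs, the log2 ratio of the list was 1.57, 1.11 and 0.71 in the obese libraries. In the LAMs of all libraries, the list's level lay between 12912 and 18032 CPM. Its log2 ratio to WT was 0.48 in 8-week db/db, 0.14 in 16-week db/db and 0.34 in HFD, and it rested on 6 WT cells. Leaving out cells with UMIs of other classes, which left 3 WT cells, turned the 16-week db/db ratio to -0.26 and the HFD ratio to -0.06.

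Lysosomal hydrolases stood higher in LAMs too, through a handful of abundant members. The summed level was 27523 CPM in LAMs and 12528 in PVMs of WT, 28478 and 11294 in 8-week db/db, 25898 and 14624 in 16-week db/db, and 29281 and 13017 in HFD. The log2 ratio of the sums was 1.14 (1.07 to 1.20), 1.33 (1.32 to 1.35), 0.82 (0.80 to 0.85) and 1.17 (1.12 to 1.22). The median of the single genes was smaller, at 0.46, 0.16 and 0.42 in the obese libraries. The count called higher was 9 of 23, 7 of 23 and 8 of 24, with none lower, and Ctsd, Ctsl, Ctsz, Ctsk, Lipa and Acp5 were higher in all 3.

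Ctsl, a cysteine protease, stood at 1262 CPM in WT LAMs, 6131 in 8-week db/db, 5767 in 16-week db/db and 4056 in HFD, against 678, 744, 680 and 801 CPM in PVMs. Ctsd, an aspartic protease, stood at 6153, 3962, 2970 and 4834 CPM in LAMs, against 1420, 980, 1023 and 1372 CPM in PVMs. Ctsk, a protease that cleaves collagen, stood at 90.1, 830, 1079 and 449 CPM in LAMs. Lipa, which frees cholesterol and fatty acids from lipoprotein lipids in lysosomes, stood at 978, 978, 642 and 1517 CPM in LAMs and at 184, 218, 234 and 604 CPM in PVMs. The list as a whole hardly differed between the LAMs of obese mice and WT, with log2 ratios of 0.05, -0.09 and 0.09, even though Ctsl and Ctsk were lower and Ctsd higher in the WT cells.

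Of genes for the lysosomal membrane and the proton pump that acidifies it, 7 of 19, 5 of 18 and 6 of 18 were higher in 8-week db/db, 16-week db/db and HFD, and the log2 ratio of sums was 0.59, 0.28 and 0.73. Atp6v0d2, a pump subunit of macrophages and osteoclasts, stood at 629, 391 and 750 CPM in LAMs and at 48.2, 38.3 and 233 CPM in PVMs. Lamp1, a main membrane protein of lysosomes, stood at 1110, 1204 and 1090 CPM in LAMs and at 1374, 2223 and 771 CPM in PVMs. The list of MiT/TFE factors, which are known to drive lysosomal genes, and of autophagy genes had log2 ratios of sums of 0.10, 0.01 and 0.08, with medians of single genes of -0.09, -0.22 and -0.18.

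Windows before the start sites of a minority of lysosomal genes held the letters that MiT/TFE factors are known to bind, and a few windows are shown beside those of rule markers. The 250 bases before each RefSeq start site on GRCm38.p6 were searched on both strands for 3 motifs. One was TCACGTG, the E-box that MiT/TFE factors bind. Another was TGACTCA, the motif of the AP-1 factors Fos and Jun. The last was GAGGAAGT, a form of the PU.1 motif. The 8 letters TCACGTGA match the E-box on both strands. Of 32851 windows, 3.13% held the E-box, 4.46% the AP-1 motif and 2.44% the PU.1 motif, and counted by gene the shares were 3.58%, 5.16% and 2.79%.

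The E-box stood before 5 of 19 matched hydrolase genes (Ctsa, Ctsd, Gla, Glb1 and Naglu) and before 4 of 14 matched membrane and pump genes (Atp6v0b, Atp6v1a, Lamp1 and Mcoln1). It stood before none of the 8 matched fatty acid genes, 11 matched named higher genes, 9 matched named lower genes or 5 rule markers. The AP-1 motif stood before 3 of the 19 hydrolase genes (Glb1, Neu1 and Psap) and before none of the membrane and pump genes. It also stood before Olr1 of the fatty acid genes, Itgax of the named higher and Cd209f of the named lower genes. Outside the rule markers, the PU.1 motif stood before the hydrolase gene Gla only. Of the rule markers, Spp1 and Mmp12 held the PU.1 motif, named for a transcription factor of macrophages, and Mmp12 held the AP-1 motif before another start site. The windows of 4 genes follow, each read 5′ to 3′ on the strand of its gene, with motif matches in capitals. Ctsd and Lamp1 show the E-box, at chr7:142387828-142388077 on the minus strand and chr8:13158911-13159160 on the plus strand. Spp1 and Mmp12 show the PU.1 motif, at chr5:104434861-104435110 and chr9:7344147-7344396, both on the plus strand. A match describes letters only, and of this pair of E-box genes Ctsd was higher in LAMs of all libraries while Lamp1 was higher in PVMs of WT and both db/db libraries.
Ctsd: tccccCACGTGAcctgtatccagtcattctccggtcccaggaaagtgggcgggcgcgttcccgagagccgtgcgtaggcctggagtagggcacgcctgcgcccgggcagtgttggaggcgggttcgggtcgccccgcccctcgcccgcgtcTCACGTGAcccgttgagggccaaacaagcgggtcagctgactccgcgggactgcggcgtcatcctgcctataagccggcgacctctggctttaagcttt
Lamp1: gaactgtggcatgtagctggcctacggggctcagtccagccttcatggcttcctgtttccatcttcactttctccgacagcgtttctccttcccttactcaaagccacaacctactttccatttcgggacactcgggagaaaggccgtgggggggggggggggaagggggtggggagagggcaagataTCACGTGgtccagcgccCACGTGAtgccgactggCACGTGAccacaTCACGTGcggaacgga
Spp1: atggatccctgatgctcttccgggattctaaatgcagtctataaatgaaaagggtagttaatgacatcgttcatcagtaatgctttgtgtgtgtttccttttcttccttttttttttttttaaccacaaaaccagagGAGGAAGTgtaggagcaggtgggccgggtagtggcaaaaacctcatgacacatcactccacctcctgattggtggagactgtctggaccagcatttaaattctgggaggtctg
Mmp12: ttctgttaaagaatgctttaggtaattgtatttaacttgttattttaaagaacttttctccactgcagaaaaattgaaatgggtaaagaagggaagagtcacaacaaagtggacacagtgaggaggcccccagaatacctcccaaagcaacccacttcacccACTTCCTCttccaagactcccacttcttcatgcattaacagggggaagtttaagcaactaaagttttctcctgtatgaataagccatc

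Other programmes set LAMs apart to different degrees. Glycolysis genes were higher for 8 of 10, 6 of 9 and 4 of 9 members in 8-week db/db, 16-week db/db and HFD, with log2 ratios of sums of 1.32, 1.41 and 0.84 and none lower. Ldha, which makes lactate, stood at 467, 644 and 370 CPM in LAMs and at 133, 166 and 138 CPM in PVMs. Cholesterol synthesis genes were higher for 5 of 7, 3 of 6 and 2 of 5 members, at low levels that summed to 326, 258 and 236 CPM in LAMs.

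Cholesterol export ran the other way by its sum, at log2 ratios of -0.77, -0.73 and -0.91, whereas the medians of its single genes were -0.02, -0.16 and 0.54. Most of the sum was Apoe, the apolipoprotein that carries lipid out of macrophages. Apoe stood at 8225, 3667 and 6823 CPM in LAMs of 8-week db/db, 16-week db/db and HFD, and at 16155, 7103 and 15990 CPM in PVMs. Within the same list, the transporter Abcg1 was higher in LAMs, at 146, 72.3 and 223 CPM against 39.6, 24.6 and 78.8 CPM in PVMs. Abca1, its partner transporter, was at 119, 36.4 and 234 CPM in LAMs and at 239, 104 and 404 CPM in PVMs. Iron and heme genes were higher by their sum, at 0.81, 0.78 and 0.98, but 3 of 8, 1 of 8 and 3 of 8 of them were lower, against 3, 1 and 1 higher. The iron exporter Slc40a1 was lower in all 3, at 3.91, 15.1 and 8.30 CPM in LAMs against 21.03, 145 and 46.0 CPM in PVMs. Hmox1, which breaks down heme, and the transferrin receptor Tfrc were lower in 8-week db/db and HFD.

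Of the signalling partners of Trem2, Lat2, a membrane adaptor, was higher in LAMs in all 3 obese libraries, at 217, 196 and 280 CPM against 25.7, 37.3 and 91.9 CPM. Tyrobp stood at 3062, 3386 and 2844 CPM in LAMs and at 1364, 1959 and 1703 CPM in PVMs, past the fold of 2 in 8-week db/db. The remaining 6 measured partners were within the fold of 2 in the 3 libraries. Genes for the uptake of dying cells had log2 ratios of sums of 0.98, 0.02 and 0.79. Of 4 with a level, 3, 1 and 2 were higher in LAMs, and 1, 1 and 0 lower. The receptor Mertk stood at 43.7, 37.0 and 63.6 CPM in LAMs against 114, 115 and 121 CPM in PVMs. It was past the fold of 2 in both db/db libraries. The receptor Axl stood at 80.1, 30.2 and 120 CPM in LAMs against 23.5, 7.86 and 72.2 CPM in PVMs. Mfge8 and Itgav were higher in LAMs in 8-week db/db and HFD. Oxidative phosphorylation genes stood slightly above PVMs, with log2 ratios of 0.48, 0.29 and 0.56 and 1 of 20 genes past the fold of 2 in each library.

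Secreted factors and matrix enzymes had log2 ratios of sums of -0.05, -0.52 and 0.15. By single genes the medians were above 0, at 0.51, 0.20 and 0.11, with 4 of 16, 5 of 12 and 4 of 15 genes higher and 2, 2 and 1 lower. Vegfa, the vascular growth factor, stood at 84.99, 16.7 and 51.8 CPM in LAMs and at 9.10, 0.98 and 9.85 CPM in PVMs. Tgfb1, the transforming growth factor beta ligand, stood at 270, 221, 208 and 264 CPM in LAMs of WT, 8-week db/db, 16-week db/db and HFD, and at 153, 156, 194 and 335 CPM in PVMs. It was thus higher in LAMs in 8-week db/db, by less than the fold of 2, and lower in HFD. Interferon response genes were lower in LAMs by their sums, at log2 ratios of -1.11, -0.80 and -0.76 and levels of 326, 66.1 and 215 CPM. Of those with a level, 3 of 6, 1 of 2 and 2 of 5 were lower and none was higher. Dissociation stress genes, which the release of cells from tissue induces, were lower in LAMs, at log2 ratios of -1.74, -1.60 and -1.15; their part in the other differences was not tested.

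**Figure D4:**
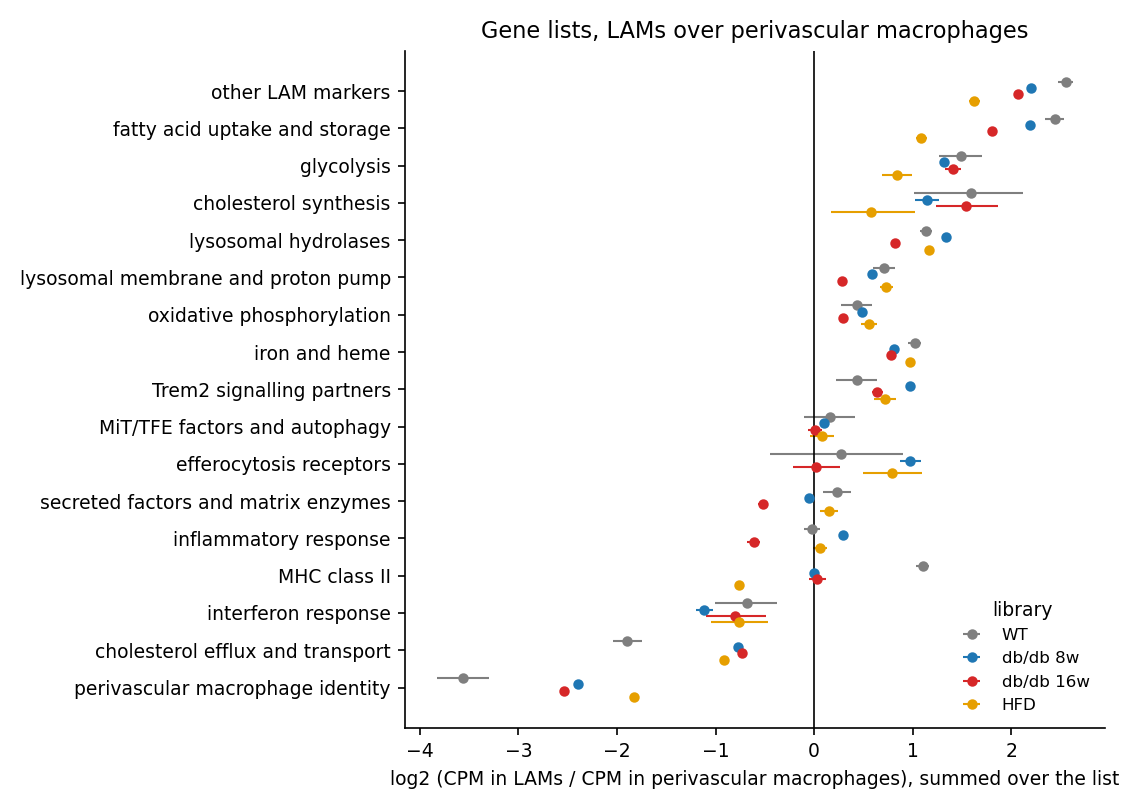
Log2 ratio of summed CPM in LAMs to summed CPM in PVMs (x axis) for the gene lists other than S phase and dissociation stress (y axis). There is 1 point per library, with exact 95% intervals for counting error. Points right of 0 are higher in LAMs; the fatty acid list lies between 1.09 and 2.44 and the PVM identity list between -3.56 and -1.82.

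LAMs of the obese libraries differed from each other far more in antigen presentation and inflammatory genes than in lipid or lysosomal genes. Over all genes, 2.82% were higher and 7.2% lower in 16-week db/db than in 8-week db/db LAMs, 2.77% and 2.74% in HFD than in 8-week db/db, and 13.5% and 4.84% in HFD than in 16-week db/db. The medians of all genes were -0.07, 0.11 and 0.23. The fatty acid list differed by -0.34, -0.14 and 0.20 in these comparisons, and the hydrolases by -0.14, 0.04 and 0.18. The other LAM markers differed by 0.17, 0.02 and -0.15.

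MHC class II genes, which present peptides to helper T cells, summed to 23494 CPM in WT LAMs, 8343 in 8-week db/db, 1310 in 16-week db/db and 12423 in HFD. Of these, 5 of 6 were lower in 16-week db/db than in 8-week db/db, with a log2 ratio of sums of -2.67 (-2.71 to -2.64), and 6 of 7 were higher in HFD than in 16-week db/db, at 3.25 (3.21 to 3.28). H2-Aa was seen in 56.1%, 15.01% and 75.2% of thinned LAMs of 8-week db/db, 16-week db/db and HFD. PVMs held 10955, 8359, 1280 and 21002 CPM of the list in WT, 8-week db/db, 16-week db/db and HFD. Both classes were lowest in 16-week db/db, but the highest level was in WT for LAMs and in HFD for PVMs. The log2 ratio of LAMs to PVMs was 1.10 in WT, near 0 in both db/db libraries and -0.76 in HFD.

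Inflammatory genes summed to 16426 CPM in WT LAMs, 29543 in 8-week db/db, 1486 in 16-week db/db and 5520 in HFD. Relative to 8-week db/db, 10 of 12 were lower in 16-week db/db, at a log2 ratio of -4.31 (-4.34 to -4.28), and 11 of 12 were lower in HFD, at -2.42 (-2.44 to -2.40). Cxcl2, a neutrophil chemokine, stood at 16116, 511 and 3656 CPM and was seen in 89.5%, 15.4% and 78.5% of thinned LAMs. Il1b, the interleukin-1 cytokine, stood at 1705, 16.2 and 149 CPM. PVMs had the same order for this list, with 16654, 24119, 2276 and 5287 CPM of the list in WT, 8-week db/db, 16-week db/db and HFD. These are immediate responses that cells can also mount during isolation, and dissociation stress genes stood at 11560, 5503, 3180 and 3580 CPM in LAMs of the 4 libraries. Their part in the order was not tested.

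Oxidative phosphorylation genes stood highest in the 16-week library among the obese libraries, at 6368, 10315 and 5812 CPM in LAMs of 8-week db/db, 16-week db/db and HFD and 4561, 8439 and 3945 CPM in PVMs. Ndufa4, a subunit of the respiratory chain, stood at 418, 880 and 413 CPM in LAMs. Mitochondrially encoded RNA had the lowest share in the library where these nuclear genes stood highest. Apoe and the cholesterol efflux list were lower in 16-week db/db than in 8-week db/db, at -0.94 for the list, and higher in HFD than in 16-week db/db, at 0.85.

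**Figure D5:**
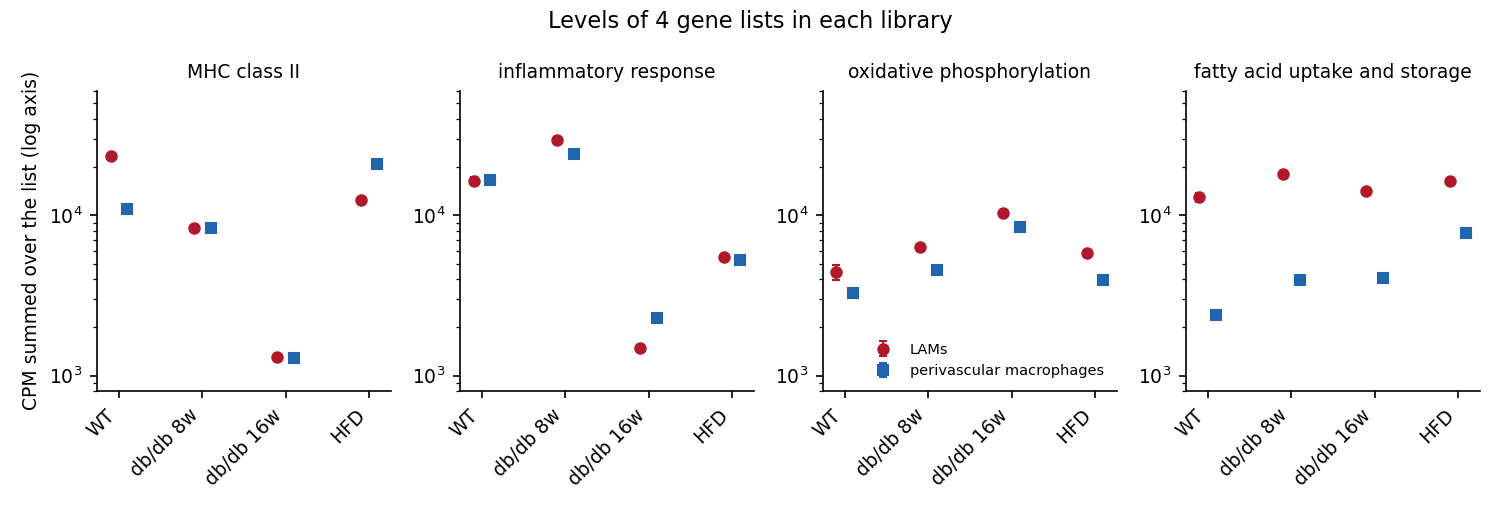
Summed CPM on a log axis (y axis) of 4 gene lists in LAMs (circles) and PVMs (squares) of each library (x axis), with exact 95% Poisson intervals. The MHC class II and inflammatory lists are lowest in 16-week db/db in both classes, at 1310 and 1486 CPM in LAMs, and MHC class II lies higher in LAMs than in PVMs in WT and lower in HFD, whereas the fatty acid list lies above PVMs in every library.

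The 6 WT members held the fatty acid list at 12912 CPM, against 14211 to 18032 CPM in the LAMs of the obese libraries. Single genes of the list differed. Of its genes with a level, 4 of 12 were at least 2-fold higher in 8-week db/db LAMs than in WT and 0 lower. These 4 were Fabp4, Olr1, Scarb1 and Lrp1, which in some library reached or passed the LAM level in cells outside the macrophage gate. With all such genes left out, the log2 ratio of the list in 8-week db/db was 0.21 in place of 0.48. Over all genes, 12.4% were higher and 13.2% lower. Per cell, the WT members held 18 to 178 UMIs of Lgals3 and 10 to 69 of Plin2. They held 0 to 88 UMIs of Lpl and 0 to 39 of Fabp5, and Trem2 UMIs were found in 4 of the 6. By the conditions for naming, 150 genes were higher in LAMs of all 3 obese libraries than in WT and 1207 were lower. The level was asked of the obese libraries for the former and of the 6 WT cells for the latter, so these counts do not share a base. They also asked for a direction and for no fold between the LAMs. At a fold of 2 over all genes with a level, 17.4% were higher and 24% lower in 16-week db/db than in WT LAMs. In HFD the shares were 16.8% and 12.3%. The first 10 of the higher genes by rank were Syngr1, Ms4a7, Aopep, Amdhd2, Dhrs9, Tnfaip8l2, Glipr1, Igf1, Myo1e and Atp6v0d2. Igf1, an insulin-like growth factor, stood at 38.6 CPM in WT and at 263, 326 and 286 CPM in 8-week db/db, 16-week db/db and HFD. Syngr1 and Ms4a7 were at 0 UMIs in WT, and 0 of 77681 UMIs allows up to 38.6 CPM. Ms4a7 was at 133, 240 and 492 CPM in the obese libraries. The first 10 of the lower genes were Ehf, Tagap, Ifnb1, AW011738, Slamf8, Tmem268, Ccl4, Ccl22, Plbd1 and Egr2. The chemokine Ccl4 stood at 5046 CPM in WT and at 884, 100 and 25.4 CPM in the obese libraries. With 6 cells, a single cell can set such a value.

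Cells that passed all other conditions with 3 or more cell cycle UMIs were the nearest neighbours of the members. They numbered 0 in WT, 68 in 8-week db/db, 313 in 16-week db/db and 98 in HFD, or 2.39%, 13.3% and 5.25% of macrophage-gated cells in the obese libraries. They were deeper, with medians of 17112, 12332 and 13261 UMIs, and a limit on raw cycle UMIs takes deep cells more readily. Of the members, 136, 248 and 203 held 1 or 2 cycle UMIs. S phase genes, a list outside the rule, summed to 220, 312 and 284 CPM in members of the obese libraries. Their log2 ratio to PVMs was 0.27, 0.51 and 0.71, with 0 of 2, 0 of 4 and 0 of 3 genes past the fold of 2. The fatty acid list stood at log2 ratios of -0.02, -0.16 and -0.07 in cycling over non-cycling cells, and the hydrolases at -0.05, -0.28 and -0.20. MHC class II genes were at -0.93, -1.01 and -0.67. Spp1 stood at 310, 2288 and 116 CPM in the cycling cells, in the same order over libraries as in the members.

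Markers of other cell types were low but present in the members. T cell markers summed to 2.42 to 12.9 CPM, B cell markers to 4.15 to 25.7 CPM and dendritic cell markers to 0 to 6.97 CPM over the 4 libraries. In WT LAMs Cd3e, Cd79a and Flt3 were at 0, which allows up to 38.6 CPM, and in the obese libraries they stood at 0 to 0.996 CPM. Other genes of the B cell list were present in WT, where 1 of the 6 members held at least 2 UMIs of the list. Neutrophil markers summed to 77.2, 93.8, 74.1 and 18.9 CPM in WT, 8-week db/db, 16-week db/db and HFD, and monocyte markers to 618, 532, 178 and 267 CPM. Most of the latter was Fn1, at 579, 489, 155 and 215 CPM, while the monocyte gene Ly6c2 stood at 0 to 1.66 CPM. Stromal markers summed to 142, 72.5, 5.30 and 89.96 CPM, and 3 of 6 members in WT, 14.8% in 8-week db/db, 0.12% in 16-week db/db and 18.1% in HFD held at least 2 of their UMIs. The rule itself allowed stromal RNA up to its limit. Endothelial markers summed to 0, 17.6, 25.9 and 159 CPM, mural markers to 0, 3.42, 5.30 and 59.6 CPM, and adipocyte markers to 12.9, 9.52, 2.27 and 84.3 CPM. HFD was thus highest in the last 3 lists, and cells outside the macrophage gate held 2253 CPM of endothelial markers in HFD against 14.5 to 970 CPM in the others. Members with at least 2 UMIs of the T cell, B cell, neutrophil, stromal, endothelial or mural lists were 22.9%, 11.8% and 37.8% in the obese libraries and 3 of 6 in WT. With those cells left out of both classes, the hydrolase log2 ratio of LAMs to PVMs was 1.27, 0.78 and 1.09 and that of the fatty acid list 2.22, 1.94 and 0.91.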

How the data were processed

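Single-cell RNA-seq libraries of BAT stromal vascular cells were analysed for 4 groups with 1 library each, so no replicate check of any difference exists. The deposited matrices hold raw UMI counts of genes in barcodes, made by the authors with Cell Ranger 7.1.0 on the mm10 build per the submitters' processing notes, after cell calling and with no normalization. No column of per-sample values was set aside. Of 32285 gene IDs, 99.8% were found in the GENCODE M21 annotation of GRCm38. The symbol Clec7a was not found, and Aldoa, which stands more than once, was left out.

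Cells were kept where the gene number lay above 250 and below 6000, the UMI number above 500 and below 30000, and the mitochondrial share below 15%. The members, gene lists and alternatives were chosen with earlier results of these data known. UMIs were summed over the members of a library and divided by all their UMIs (CPM), in total 77681 in WT, 4094635 in 8-week db/db, 6598909 in 16-week db/db and 6024646 in HFD. Shares carry exact Clopper-Pearson intervals, sums exact Poisson intervals and ratios exact conditional binomial intervals, all at 95%. PVMs were gated as stated with their shares. Counts are of 3′ tags and were not corrected for gene length, so levels were compared within genes or lists. Named genes had at least 20 CPM in the higher class in every library and the same direction throughout, and were ranked by their smallest log2 ratio with 10 CPM added. Against WT the same was asked of the 3 obese libraries, and the LAM level had to be at least 2 times that outside the macrophage gate. Mitochondrial, ribosomal protein and Gm or Rik genes were left out of the ranking, and 1 ranked gene is not reported here. No doublet caller was run. Instead, an alternative dropped cells with at least 2 UMIs of another class. Cells were thinned to 1000 UMIs with a fixed seed where detection was compared. Ratios and intervals were tested on counts simulated without spread between cells, so that test covers the computation only. Alternatives covered depth, thresholds, the mitochondrial limit, other-class cells, the denominator, each marker, the summary over genes, the added CPM, scaling and free RNA. Python 3.11.15, numpy 2.4.6, scipy 1.17.1 and pandas 2.3.3 were used. Promoter windows came from RefSeq on GRCm38.p6.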

Additional observations from a re-analysis of the deposited data

Results flagged for a closer look

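In HFD, 580 barcodes met every condition for LAMs except the mitochondrial limit, which kept them out of the 664 members. They were 20.1% of the 2884 macrophage-gated barcodes that failed this limit alone in HFD. The same count was 0 in WT, 31 in 8-week db/db and 1 in 16-week db/db. What these barcodes were was not tested.

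By summed CPM, the difference between LAMs and PVMs took opposite directions in the libraries of obese mice for 2 gene lists, with 1 library per group, and the difference between libraries was not tested. For secreted factors and matrix enzymes, the log2 ratio of LAMs to PVMs was 0.15 in HFD, -0.049 in 8-week db/db and -0.52 in 16-week db/db. The medians of its single genes were above 0 in all 3, at 0.11, 0.51 and 0.20, so the opposition held for the sums only. For inflammatory genes it was 0.29 in 8-week db/db, where 2 of 12 genes were past a fold of 2 higher and 5 lower, and -0.61 in 16-week db/db.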

How the results depend on the processing

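With 1 library per group, the values below cover counting error and not the variation between mice, and ratios to WT rest on 6 cells. For ratios, the spread between cells is left out too. No paired analysis was possible because each group held 1 library and no value came from a test. Of 157 alternative values, 49 stayed within the counting interval of the reported value, 101 moved beyond it in the same direction and 7 changed sign. All 7 were ratios to WT. No LAM share minus WT changed sign, nor did the LAM to PVM ratio of the fatty acid or hydrolase list, on which alone the alternatives were run. Where values moved, the cause was not tested. Alternatives that compared the LAMs of obese libraries, used other gated cells in place of PVMs, or ranked named genes over obese libraries were chosen after seeing the data.

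The LAM share minus that of WT, in percentage points, became 38.6 in HFD with cells thinned to 1000 UMIs, and 7.17 in 8-week db/db, 20.4 in 16-week db/db and 19.7 in HFD with a marker sum of at least 40. It became 18.9 in 8-week db/db, 43.5 in 16-week db/db and 49.1 in HFD with a marker sum of at least 10, and 15.4 in 8-week db/db, 47.8 in 16-week db/db and 40.3 in HFD with cycling cells counted as well. It became 48.0 in HFD with a mitochondrial limit of 10%, and 25.7 in HFD with no mitochondrial limit. It became 3.20 in 8-week db/db, 14.0 in 16-week db/db and 12.1 in HFD with all quality-passing cells as denominator. Dropping each of the 5 markers in turn gave 9.22 to 12.4 in 8-week db/db, 24.1 to 33.7 in 16-week db/db and 23.8 to 34.3 in HFD.

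The fatty acid log2 ratio of LAMs to WT became 0.38 in 8-week db/db with the median of gene ratios with 10 CPM added, and 0.38 in 8-week db/db and 0.31 in 16-week db/db with that median with 1 CPM added. It became 0.59 in 8-week db/db and 0.39 in 16-week db/db with values taken relative to the median of all genes, and 0.32 in 8-week db/db, 0.033 in 16-week db/db and 0.21 in HFD with a marker sum of at least 40. It became 0.12 in 8-week db/db, -0.26 in 16-week db/db and -0.057 in HFD with other-class cells left out, and 0.21 in 8-week db/db, -0.036 in 16-week db/db and 0.14 in HFD with genes at or above the LAM level outside the gate left out. It became 0.022 in 16-week db/db with the mean over cells.

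The hydrolase log2 ratio of LAMs to WT became -0.027 in 8-week db/db and 0.0049 in HFD with the mean over cells, and 0.12 in 8-week db/db, -0.23 in 16-week db/db and 0.48 in HFD with that median with 1 CPM added. It became 0.16 in 8-week db/db and 0.16 in 16-week db/db with values taken relative to the median of all genes, and 0.12 in 8-week db/db with a marker sum of at least 40. It became -0.18 in 8-week db/db, -0.27 in 16-week db/db and -0.050 in HFD with other-class cells left out, and -0.18 in 16-week db/db and 0.45 in HFD with the median of gene ratios with 10 CPM added.

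The fatty acid log2 ratio of LAMs to PVMs became 1.65 in WT, 1.36 in 8-week db/db, 0.71 in 16-week db/db and 1.02 in HFD with the median of gene ratios with 10 CPM added, and 1.75 in WT, 1.42 in 8-week db/db, 0.73 in 16-week db/db and 1.03 in HFD with that median with 1 CPM added. It became 2.28 in WT, 2.23 in 8-week db/db and 2.04 in 16-week db/db with values taken relative to the median of all genes, and 2.65 in WT, 2.25 in 8-week db/db, 1.92 in 16-week db/db and 1.17 in HFD with a marker sum of at least 40. It became 2.77 in WT, 2.22 in 8-week db/db, 1.94 in 16-week db/db and 0.91 in HFD with other-class cells left out, and 2.34 in WT, 1.57 in 8-week db/db, 1.11 in 16-week db/db and 0.71 in HFD with all other non-cycling gated cells for PVMs. It became 2.31 in 8-week db/db and 1.15 in HFD with the mean over cells, and 2.17 in 8-week db/db and 0.80 in HFD with a mitochondrial limit of 10%.

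The hydrolase log2 ratio of LAMs to PVMs became 1.20 in WT, 1.32 in 8-week db/db and 0.79 in 16-week db/db with the mean over cells, and 0.42 in WT, 0.46 in 8-week db/db, 0.16 in 16-week db/db and 0.42 in HFD with the median of gene ratios with 10 CPM added. It became 0.47 in WT, 0.47 in 8-week db/db, 0.17 in 16-week db/db and 0.43 in HFD with that median with 1 CPM added, and 0.97 in WT, 1.37 in 8-week db/db and 1.06 in 16-week db/db with values taken relative to the median of all genes. It became 1.32 in WT, 1.59 in 8-week db/db, 0.98 in 16-week db/db and 1.33 in HFD with a marker sum of at least 40, and 1.35 in WT, 1.27 in 8-week db/db, 0.78 in 16-week db/db and 1.09 in HFD with other-class cells left out. It became 1.24 in WT, 0.98 in 16-week db/db and 1.28 in HFD with all other non-cycling gated cells for PVMs, and 0.91 in HFD with a mitochondrial limit of 10%.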
